A study of Mus musculus with 24 samples.

Results

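The genes described here are the core of the circadian clock and its first outputs, measured along the villus of the mouse small intestine. They were chosen by symbol from a list of 10 genes (Per1, Per2, Per3, Arntl, Clock, Nr1d1, Nr1d2, Dbp, Tef and Ciart). Of these, 9 had a row among the 17811 genes of the count table, and Per3 was not analysed here. The libraries came from male C57BL/6 mice aged 10 weeks, fed regular chow without restriction and killed by cervical dislocation. Epithelial cells of the jejunum were stained for CD73 and CD26, surface proteins whose levels mark the position along the villus, and were sorted into zones V1 (lowest), V2, V3, V4 (middle), V5 and V6 (tip). Each of 4 mice gave 1 library per zone, 24 in all, made by bulk mcSCRB-seq of polyadenylated RNA, a method that tags each captured molecule with a unique molecular identifier (UMI). All groups share the sex, the strain, the age and the diet, and the labels give no time of day for any mouse.

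The clock of mammalian cells is a feedback loop of transcription. CLOCK, or its relative NPAS2, pairs with ARNTL (also called BMAL1) and activates genes through E-boxes, among them the Per, Cry and Nr1d genes, Dbp, Tef and Ciart. PER and CRY proteins then inhibit that pair. NR1D1 and NR1D2 (REV-ERB alpha and beta) repress Arntl through RORE elements. DBP, TEF and HLF act on D-boxes, which NFIL3 binds as a repressor. In many tissues, the intestinal epithelium included, transcripts of Arntl and Npas2 peak at the opposite phase of the day from those of Nr1d1 and Dbp.

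Library totals ranged from 806541 to 2266261 UMIs. Values are CPM, the UMIs of a gene relative to the library's total after scaling by trimmed means (TMM), and Arntl, with a mean of 10.8, had 6 to 37 molecules per library. A count of 0 in 1 library allows a level of up to 1.32 to 4.08 CPM, a limit of 3 counts that covers counting error only. The filter on low counts kept 9328 genes, among them 6 of the 9 counted clock genes. Per1, Per2 and Ciart fell under it, with 98, 67 and 25 UMIs over all libraries. The series was sequenced in several batches that the labels do not assign. An index column deposited with the sample sheet, which its header does not describe further, put all libraries of mouse 1 and V1 of mouse 2 under 1 code, the other 5 of mouse 2 under another, and mice 3 and 4 under 1 code each. Mouse and index code cannot be told apart except through that 1 library.

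Promoter sequences of the members that differ most between mice, described below, are shown with the letters of the loop's binding motifs. They are from RefSeq on GRCm38.p6, whose table held 8 of the 9 counted genes (Per2 had no entry). The windows of 250 bases before and 50 after each start were searched on both strands for the E-box CACGTG, the related CACGTT, the D-boxes TTATGTAA and TTACGTAA and the RORE cores TAGGTCA and TGGGTCA, and no matches overlapped. CACGTG was in 7.15% of all 32851 promoters, CACGTT in 4.68%, TTATGTAA in 0.938%, TTACGTAA in 0.119%, TAGGTCA in 2.61% and TGGGTCA in 3.98%. Among the 8 genes, 3 held CACGTG at any of their starts, against 8.09% of all 27025 genes counted in the same way. Counting from the start site, with bases before it negative, Ciart had it at -116, -58 and -44, and Per1 at -166 of one of its 2 starts. Tef had it at -127 and -138 of its 2 starts, and Nr1d1 held CACGTT on the opposite strand at -28, read as AACGTG in the line below. Arntl held the RORE core TAGGTCA after one of its 2 starts, at 31. Dbp had none of these letters in this window, and no D-box was found in the 8 genes. RefSeq starts differ from the GENCODE M21 gene positions given further below. The Tef line lies within the GENCODE span of Tef, which starts at 81802421, and the Dbp line runs past the GENCODE start of Dbp at 45705088. The lines below give the 250 bases before the RefSeq start of Tef (chr15:81802423-81802672, plus strand), Nr1d1 (chr11:98775378-98775627, minus strand) and Dbp (chr7:45704997-45705246, plus strand) and 27 bases around the Arntl match (chr7:113207531-113207557, plus strand), with matched letters in capitals.
Tef: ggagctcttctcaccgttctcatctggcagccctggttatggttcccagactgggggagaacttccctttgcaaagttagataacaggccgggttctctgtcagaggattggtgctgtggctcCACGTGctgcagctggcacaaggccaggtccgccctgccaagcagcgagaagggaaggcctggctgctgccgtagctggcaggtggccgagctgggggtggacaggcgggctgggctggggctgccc
Nr1d1: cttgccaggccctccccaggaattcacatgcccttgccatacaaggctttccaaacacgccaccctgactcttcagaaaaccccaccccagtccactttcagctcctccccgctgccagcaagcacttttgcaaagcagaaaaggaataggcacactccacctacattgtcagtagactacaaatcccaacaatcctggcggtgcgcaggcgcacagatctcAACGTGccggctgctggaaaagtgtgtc
Dbp: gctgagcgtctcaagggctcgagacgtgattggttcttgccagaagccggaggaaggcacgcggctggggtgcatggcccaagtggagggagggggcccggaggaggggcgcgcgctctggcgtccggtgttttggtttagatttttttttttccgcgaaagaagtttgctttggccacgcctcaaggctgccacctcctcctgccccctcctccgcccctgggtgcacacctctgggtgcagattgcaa
Arntl: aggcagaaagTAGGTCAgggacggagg

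The first question was whether clock transcripts differ along the villus axis. Nr1d1, the gene of the nuclear receptor REV-ERB alpha, rose toward the tip, and most of the increase lay between V1 and V3. With the mouse as a term in the model, Dbp, Nr1d2 and Clock were called higher as well, while Arntl had a slope close to 0. Each of these added calls ended when mouse 1 was left out, and those of Nr1d2 and Clock also under scaling by total UMIs. Dbp had too few UMIs in mice 3 and 4 to show a zone pattern. No member was called lower. A slope is given as log2 units per zone, with the zones taken as equally spaced. With zone alone in the model, edgeR's quasi-likelihood test with Benjamini-Hochberg adjustment called 1 of the 6 tested members higher toward the tip, against 22.1% of all 9328 genes, and 0 lower, against 22.8%. With the mouse added as a block it called 4 of 6 higher, against 27.6%, and 0 lower, against 27.8%. Without the filter on low counts, 0 of the 9 counted members were called higher (3 at an unadjusted p under 0.05, background 12%), and 4 of 9 with the block (background 15.8%). Those 4 were Nr1d1, Nr1d2, Dbp and Tef, while Clock was not called there.

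**Figure D1:**
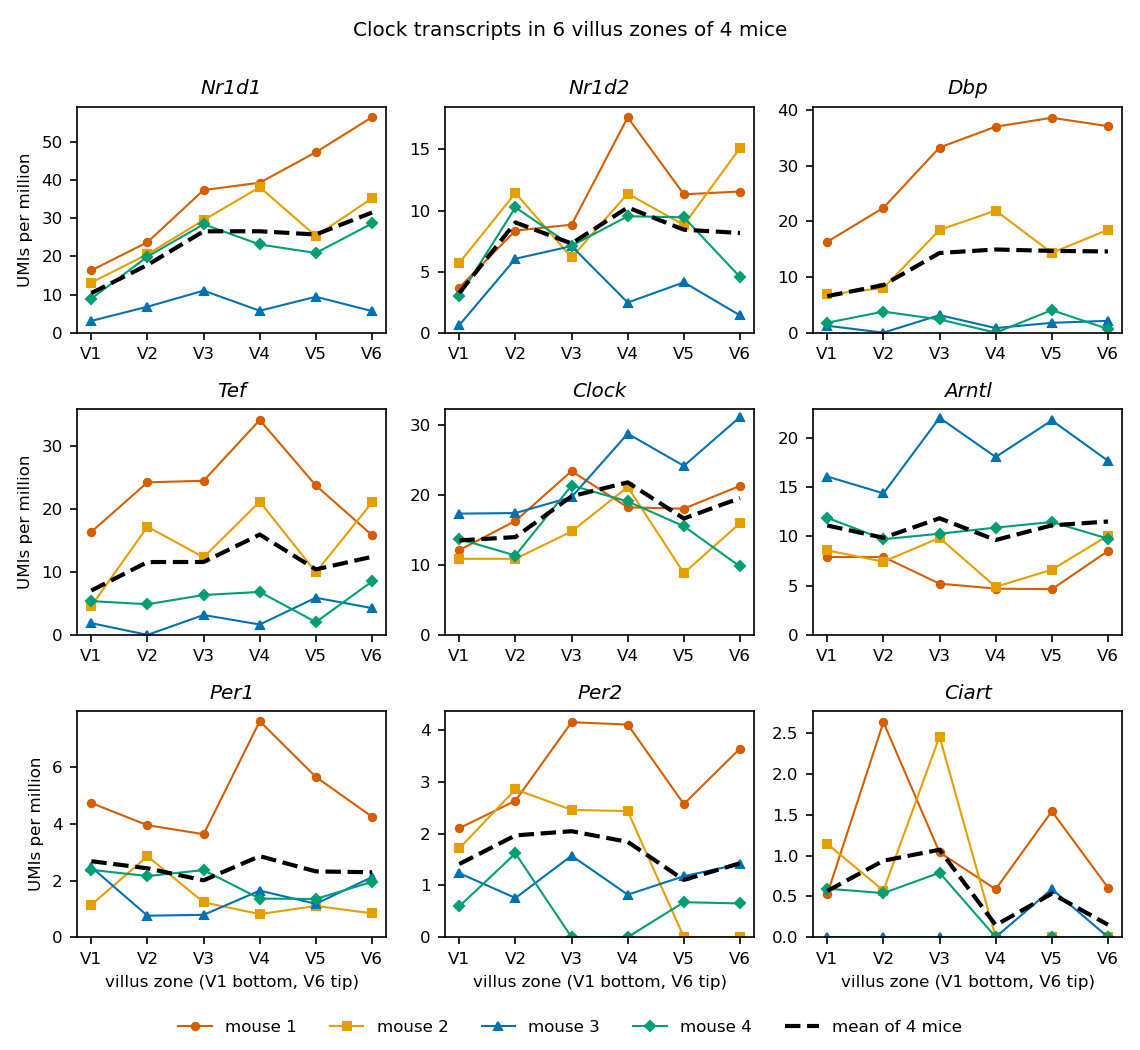
CPM of 9 clock genes (y axes, each panel with its own scale) in villus zones V1 to V6 (x axes). Coloured lines join the 6 libraries of a mouse and the dashed line is the mean of 4 mice. Nr1d1 and Nr1d2 are lowest in V1 in all 4 mice, for Nr1d2 in mouse 3 from 1 UMI. The lines of mice 1 and 2 lie above those of mice 3 and 4 in every zone for Dbp.

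Nr1d1 lies on chromosome 11 (GRCm38, 98767932 to 98775333, minus strand, 8 merged exons). It had 56.6, 35.3, 5.66 and 28.7 CPM in V6 of mice 1, 2, 3 and 4, against 16.3, 13.2, 3.09 and 8.92 in V1 of the same mice. V6 was above V1 in 4 of 4 mice, although the ranges of the zones overlapped because mouse 3 was low throughout. V6 minus V1 was 1.59 ± 0.62 log2 units (SE), a 3.00-fold difference, with an adjusted p of 0.0475 by edgeR's quasi-likelihood test and 3.58e-07 with the mouse block. Without the block that call ended with DESeq2 size factors, total UMIs, no filter, limma-voom or without mitochondrial genes (adjusted p from 0.0503 to 0.161), and DESeq2 kept it (0.0257). Its slope was 0.27 ± 0.10 per zone (adjusted p = 0.0381 by the same test) and 0.27 ± 0.04 with the block (adjusted p = 1.46e-07). The zone means in order from V1 to V6 were 10.4, 17.8, 26.6, 26.6, 25.8 and 31.5 CPM. In that order of levels, V2 was above V1 and V5 above V2 in 4 of 4 mice, while V3 to V6 did not stand in the same order in all mice. Without the block the slope lost its call when mouse 1, 2 or 4 was left out (adjusted p 0.184, 0.141 and 0.122) and when V1 was left out (slope 0.15, adjusted p = 0.483). With the block it was called without any 1 mouse (adjusted p from 7.28e-07 to 2.54e-04), but not over V3 to V6 alone (slope 0.06, adjusted p = 0.696).

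Nr1d2 (chromosome 14, 18204054 to 18239127, minus strand) encodes REV-ERB beta, which shares targets with REV-ERB alpha. It had 11.6, 15.1, 1.41 and 4.56 CPM in V6 of mice 1, 2, 3 and 4, against 3.69, 5.72, 0.619 and 2.97 in V1. V1 was the lowest zone of every mouse, but in mouse 3 this rests on 1 UMI in V1 against 2 in V6 and 3 in V4. The largest zone difference was that of the middle: V4 had 17.6, 11.4, 2.46 and 9.53 CPM, which gave 1.66 ± 0.56 log2 units for V4 minus V1 (3.16-fold, adjusted p = 0.0241 by edgeR's quasi-likelihood test). That call ended without mouse 1 (adjusted p = 0.222, and 0.0568 with the block) and without mouse 4 (0.102). The slope was 0.19 ± 0.09 (adjusted p = 0.106) and 0.19 ± 0.07 with the block (adjusted p = 0.0168). The blocked slope was not called without mouse 1 (adjusted p = 0.204) or mouse 2 (0.0573), nor with total UMIs as library size (slope 0.12, adjusted p = 0.132).

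Dbp (chromosome 7, 45705088 to 45710203, plus strand) encodes an activator of D-box genes. It had 37.1, 18.5, 2.12 and 0.652 CPM in V6 of mice 1, 2, 3 and 4, against 16.3, 6.86, 1.24 and 1.78 in V1. V6 was higher in 3 of 4 mice, and the range of V1 lay inside that of V6. The slope of 0.22 ± 0.21 was not called with zone alone (adjusted p = 0.395 by edgeR's quasi-likelihood test). It was 0.22 ± 0.06 with the block (adjusted p = 0.0013), and without mouse 1 the blocked slope was 0.19 (adjusted p = 0.0993). In mice 3 and 4 Dbp had between 0 and 7 UMIs per library, too few to show a zone pattern at this depth.

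Tef (chromosome 15, 81802421 to 81826863, plus strand), a relative of Dbp that binds the same element, had 15.8, 21, 4.24 and 8.47 CPM in V6 of mice 1, 2, 3 and 4, against 16.3, 4.57, 1.86 and 5.35 in V1. V6 was higher in 3 of 4 mice, and the zones overlapped. Its slope was 0.11 ± 0.15 (adjusted p = 0.586 by edgeR's quasi-likelihood test) and 0.13 ± 0.06 with the block (adjusted p = 0.0924). V4 minus V1 was 1.14 ± 0.38 with the block (adjusted p = 0.0129) and 1.23 ± 0.89 without it (adjusted p = 0.288). Without the filter, the blocked slope of Tef was 0.13 ± 0.05 and was called (adjusted p = 0.0405 by the same test).

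The activators are partners in 1 dimer. Clock (chromosome 5, 76209868 to 76304792, minus strand) had 21.3, 16.0, 31.1 and 9.77 CPM in V6 of mice 1, 2, 3 and 4, against 12.1, 10.9, 17.3 and 13.7 in V1. It was higher in V6 in 3 of 4 mice and higher in V4 than in V1 in 4 of 4. Its slope was 0.11 ± 0.05 (adjusted p = 0.0925 by edgeR's quasi-likelihood test) and 0.10 ± 0.04 with the block (adjusted p = 0.0348), a call that ended without mouse 1, 2 or 3 (adjusted p from 0.0676 to 0.288) and with total UMIs (slope 0.03, adjusted p = 0.501). The blocked call of Clock also ended without the filter (adjusted p = 0.0529 by the same test). Arntl (chromosome 7, 113207465 to 113314126, plus strand) had 8.52, 10.1, 17.7 and 9.77 CPM in V6 of mice 1, 2, 3 and 4, against 7.91, 8.58, 16.1 and 11.9 in V1. V6 was higher in 3 of 4 mice, by less than the differences between mice, and the slope was 0.02 ± 0.08 (adjusted p = 0.868). Its sign turned under scaling by total UMIs (slope -0.05), so no direction is given for it.

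The remaining repressors were near the limit of counting. Per1 (chromosome 11, 69095217 to 69109960, plus strand), a gene of the PER and CRY complex that also responds directly to stimuli, had 1 to 13 UMIs per library. It had 4.26, 0.84, 2.12 and 1.95 CPM in V6 of mice 1, 2, 3 and 4, against 4.74, 1.14, 2.47 and 2.38 in V1. V6 was the lower zone in 4 of 4 mice, but by less than the spread between mice, and without the filter its slope was -0.01 ± 0.11 (adjusted p = 1.00 by edgeR's quasi-likelihood test). Per2 (chromosome 1, 91415982 to 91459324, minus strand) was at 0 in 4 libraries and reached 8 UMIs, and its slope without the filter was -0.04 ± 0.14 (adjusted p = 0.971). Ciart (chromosome 3, 95878503 to 95882251, minus strand), the gene of a repressor of CLOCK and ARNTL, was at 0 in 11 libraries and reached 6 UMIs (slope -0.31 ± 0.21, adjusted p = 0.306). At this depth no zone difference was detectable for these 3 genes.

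**Figure D2:**
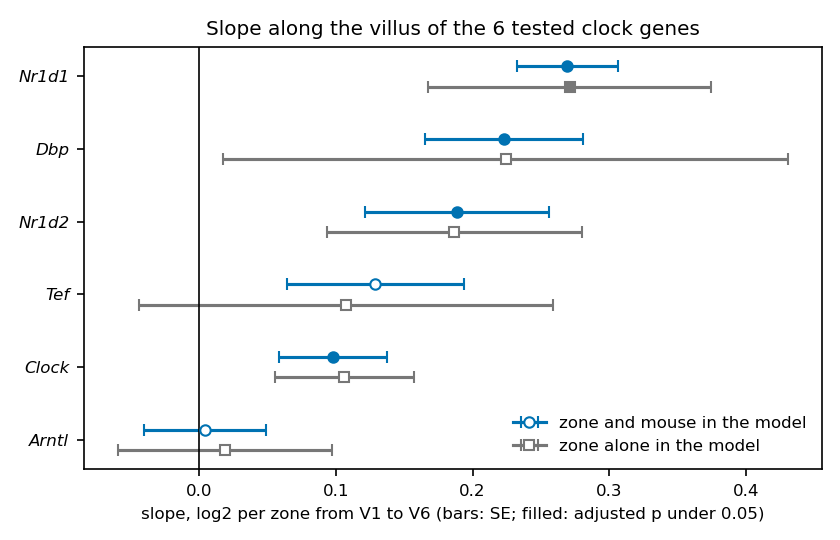
Slope of log2 expression per zone (x axis) for the 6 tested clock genes (y axis) with the mouse in the model (circles) and with zone alone (squares). Bars are SE and filled symbols have an adjusted p under 0.05. The slopes hardly move between the models, whereas the error of Dbp is 0.21 without the mouse term and 0.06 with it.

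Members were called in contrasts with V1 and not between V6 and V4. V6 minus V1 called 1 of 6 members higher (Nr1d1, background 20.2%) and 3 of 6 with the block (Nr1d1, Nr1d2 and Dbp, background 26.7%). V4 minus V1 called 1 of 6 (Nr1d2, background 19%) and 5 of 6 with the block (all but Arntl, background 25.6%). V6 minus V4 called 0 of 6 in both fits, where 0.45% of genes were called without the block and 1.42% with it. No member reached an unadjusted p under 0.05 there with edgeR, DESeq2 or limma-voom. The test of any difference between zones called 0 of 6 members with edgeR (0 at an unadjusted p under 0.05, background 27.4%), DESeq2 and limma-voom, and 3 of 6 in edgeR with the block (Nr1d1, Nr1d2 and Dbp, background 48.6%). The slopes of Nr1d2, Dbp and Tef lay between -0.06 and 0.01 over V3 to V6 in both fits.

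Cell type markers changed along the same axis. The goblet cell list (9 of 9 counted, none at 0 in any library) summed to 9426 to 15608 CPM in V6, against 47484 to 94499 in V1. The enterocyte list (8 of 8 counted) summed to 57222 to 80561 in V6, against 9308 to 23274 in V1, and the leukocyte list (8 of 8) to 236 to 281, against 6.29 to 55.7. Among leukocyte markers Cd8a was at 0 in 9 libraries, and the stromal markers Col1a1, Col3a1 and Dcn were each at 0 in 22. Mitochondrial transcripts took 8.10 ± 1.21% of UMIs in V6, 3.31 ± 0.89% in V1 (SD, n = 4 each) and means of 6.14% to 9.45% in V2 to V5. In bulk samples fewer cells of a type and less RNA per cell cannot be told apart. With a goblet score beside the mouse in the model, the slope of Nr1d1 was 0.45 ± 0.12 (adjusted p = 0.0317 by edgeR's quasi-likelihood test). Under that model the slopes of Nr1d2 (0.38 ± 0.21), Dbp (0.26 ± 0.21) and Clock (-0.10 ± 0.13) were not called. With the block alone their errors were smaller, at 0.07, 0.06 and 0.04. Over all genes, calls higher fell from 2572 with the block to 207 with the score added, so lost calls are not particular to these slopes. The part of the enterocyte and leukocyte markers and of the mitochondrial share in these slopes was not tested. Of 13 tested immediate early genes, which respond within minutes to stress and handling, 10 were called higher toward the tip and 1 lower, and 11 higher and 1 lower with the block. Over all genes 22.1% were called higher and 22.8% lower, and 27.6% and 27.8% with the block. The part of the immediate early genes was not tested either.

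Cry1 and Npas2 rose toward the tip. Of 24 further clock genes, 22 were counted and 15 tested. Among activators and repressors, 3 of 5 tested genes (of 10 counted) were called higher and 0 lower, with and without the block, against 22.1% of all genes called higher with zone alone and 27.6% with the block, and their median slope was 0.12, against -0.0047 over all genes. Cry1, which encodes a repressor of CLOCK and ARNTL, rose at 0.36 ± 0.08 per zone (adjusted p = 7.98e-04 by edgeR's quasi-likelihood test). It had 12.8, 5.88, 26.2 and 21.5 CPM in V6 of mice 1, 2, 3 and 4, against 3.69, 5.72, 6.19 and 4.76 in V1. Npas2, which can stand in for Clock, rose at 0.24 ± 0.08 (adjusted p = 0.02 by the same test). Bhlhe40, a repressor of E-box genes, and Nfil3 had slopes of 0.04 and -0.02 that were not called.

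Of the kinases and ubiquitin genes that set the stability of PER and CRY, 3 of 10 tested were called higher and 0 lower (background 22.1%), and 4 of 10 higher with the block (background 27.6%), shares near the background in a list of 10. Csnk1d rose at 0.11 ± 0.03 (adjusted p = 0.00385 by edgeR's quasi-likelihood test) and Gsk3b at 0.16 ± 0.06 (adjusted p = 0.0286). Their median slope over the list was 0.05. Of 9 output genes known from several tissues, 5 were tested, and Por, which encodes the electron donor of cytochrome P450 enzymes, rose at 0.42 ± 0.03 (adjusted p = 4.25e-11) while Dtx4 fell by 0.21 ± 0.08 per zone (adjusted p = 0.0311). With the block 2 of these 5 were called higher and 1 lower, against 27.6% and 27.8% of all genes. Of 4 tested glucocorticoid targets, Sgk1, the gene of a kinase, rose at 0.52 ± 0.08 (adjusted p = 5.68e-05).

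The second comparison was between the animals, since clock transcripts change with the hour and the labels name mice but no hour. Dbp, Tef and Nr1d1 were high in mouse 1 and low in mouse 3, and Arntl, Npas2 and Nfil3 were high in mouse 3 and low in mouse 1. Libraries of 1 mouse share the animal, so this test compares these 4 animals, with zone in the model. Dbp had no library of mouse 3 or 4 over the filter's level of 6.65 CPM, and Tef had 1, so these 2 genes passed through the mice in which they were high. The count is therefore given without the filter: 8 of the 9 counted members were called between mice by edgeR's quasi-likelihood test, against 27.8% of 17680 genes. Ciart was not called (adjusted p = 0.205). With the filter the test called 6 of 6, against 48.1% of genes.

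**Figure D3:**
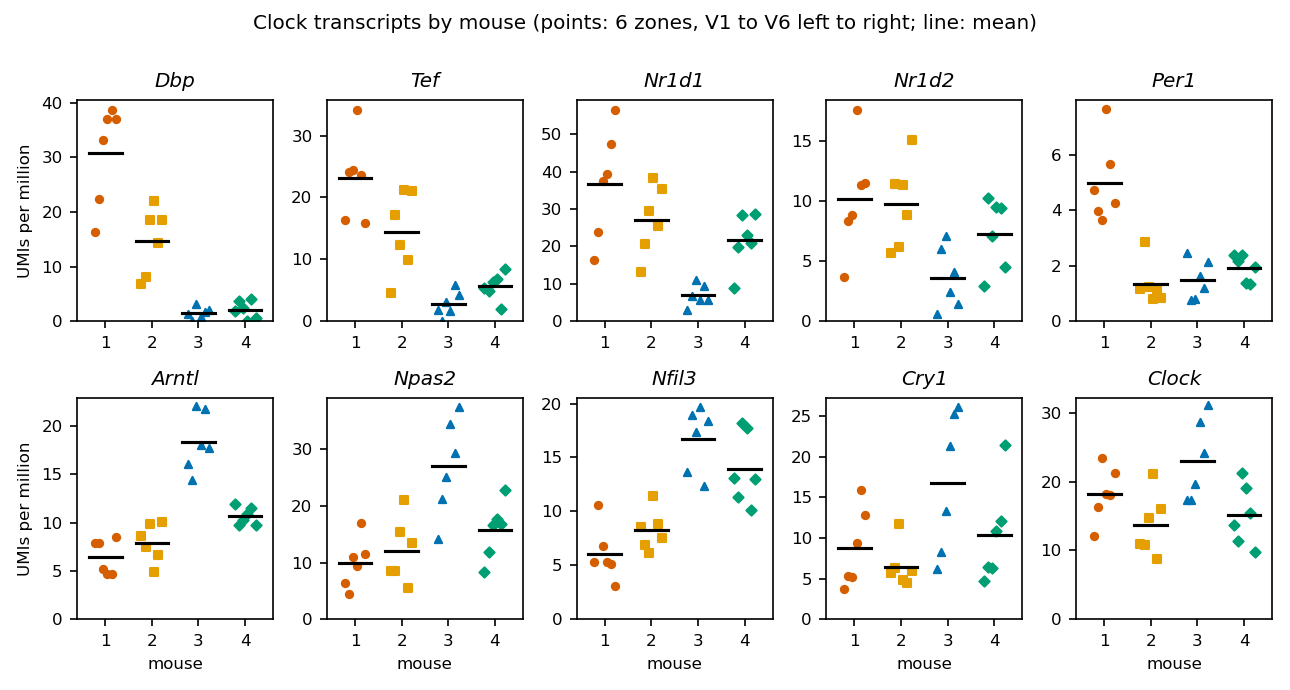
CPM (y axes, each panel with its own scale) of 10 clock genes in mice 1 to 4 (x axes). Points are the 6 zones of a mouse, V1 to V6 from left to right, and lines are means. In the upper row mouse 1 has the highest mean of each gene, and in the lower row mouse 3 has.

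Dbp ranged from 16.3 to 38.6 CPM in mouse 1 (median 35.1), from 6.86 to 21.9 in mouse 2 (median 16.4), from 0 to 4.05 in mouse 4 (median 2.08) and from 0 to 3.15 in mouse 3 (median 1.5). All libraries of mice 1 and 2 were above all libraries of mice 3 and 4. In molecules, mouse 1 had 345 UMIs of Dbp, mouse 2 had 118, mouse 4 had 20 and mouse 3 had 13, from totals between 8039774 and 11730043. In the fit without the filter, the highest mouse was 4.26 log2 units above the lowest (19.1-fold, adjusted p = 5.29e-66 by edgeR's quasi-likelihood test). With the filter the same test gave an adjusted p of 2.98e-14. Adjusted p-values of different genes can be set side by side only within 1 fit.

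Tef ranged from 15.8 to 34.1 CPM in mouse 1 (median 23.9), from 4.57 to 21.1 in mouse 2 (median 14.7), from 2.02 to 8.47 in mouse 4 (median 5.84) and from 0 to 5.89 in mouse 3 (median 2.50). Mouse 1 did not overlap mouse 3 or 4, whereas mouse 2 did. Without the filter, the range between mice was 2.94 log2 units (7.65-fold, adjusted p = 5.90e-31 by edgeR's quasi-likelihood test, and 2.76e-08 with the filter). Hlf, the third gene of this family and not a member, had 23, 4, 0 and 1 UMIs in mice 1, 2, 3 and 4. The 0 of mouse 3 allows up to 0.351 CPM over its 6 libraries.

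Nr1d1 ranged from 16.3 to 56.6 CPM in mouse 1 (median 38.4), from 13.2 to 38.2 in mouse 2 (median 27.5), from 8.92 to 28.7 in mouse 4 (median 22.0) and from 3.09 to 11 in mouse 3 (median 6.28). Mouse 3 lay apart from mice 1 and 2, and its range met that of mouse 4 only at the V1 library of mouse 4. With the filter, the range was 2.36 log2 units (5.14-fold, adjusted p = 5.21e-11 by edgeR's quasi-likelihood test, and 1.51e-27 without the filter). Nr1d2 followed the same order of mice with a smaller range of 1.47 log2 units (2.76-fold, adjusted p = 0.00152 with the filter). Its means were 10.2 ± 4.60 CPM in mouse 1, 9.77 ± 3.59 in mouse 2, 7.31 ± 2.99 in mouse 4 and 3.63 ± 2.58 in mouse 3 (SD, n = 6 zones).

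Arntl ran the other way. It ranged from 14.4 to 22.0 CPM in mouse 3 (median 17.9), from 9.72 to 11.9 in mouse 4 (median 10.6), from 4.88 to 10.1 in mouse 2 (median 8.0) and from 4.63 to 8.52 in mouse 1 (median 6.55). Mouse 3 overlapped no other mouse, and mouse 4 did not overlap mouse 1. With the filter, the range was 1.49 log2 units (2.80-fold, adjusted p = 2.04e-06 by edgeR's quasi-likelihood test). Clock had a smaller range of 0.74 log2 units (1.67-fold, adjusted p = 0.00652), with the highest mean in mouse 3 (23.1 ± 5.91 CPM) and the lowest in mouse 2 (13.7 ± 4.50, SD, n = 6 zones each). Without mouse 3, Dbp, Tef and Nr1d1 were called between the other 3 mice, and Arntl, Clock and Nr1d2 were not (adjusted p 0.0648, 0.214 and 0.336). That fit, with the filter, called 3001 of all 9403 genes tested.

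Dbp set against Arntl in the same library gives a ratio that scaling does not touch, and it is read here between mice. A UMI stands for 1 captured molecule whatever its length. Over its 6 libraries, mouse 1 had 4.66 Dbp molecules per Arntl molecule, mouse 2 had 1.74, mouse 4 had 0.22 and mouse 3 had 0.0828. Dbp had more UMIs than Arntl in 6 of 6 libraries of mouse 1, in 5 of 6 of mouse 2 and in 0 of 6 of mice 3 and 4. Nr1d1 molecules per Arntl molecule were 5.53 in mouse 1, 3.22 in mouse 2, 1.98 in mouse 4 and 0.376 in mouse 3.

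**Figure D4:**
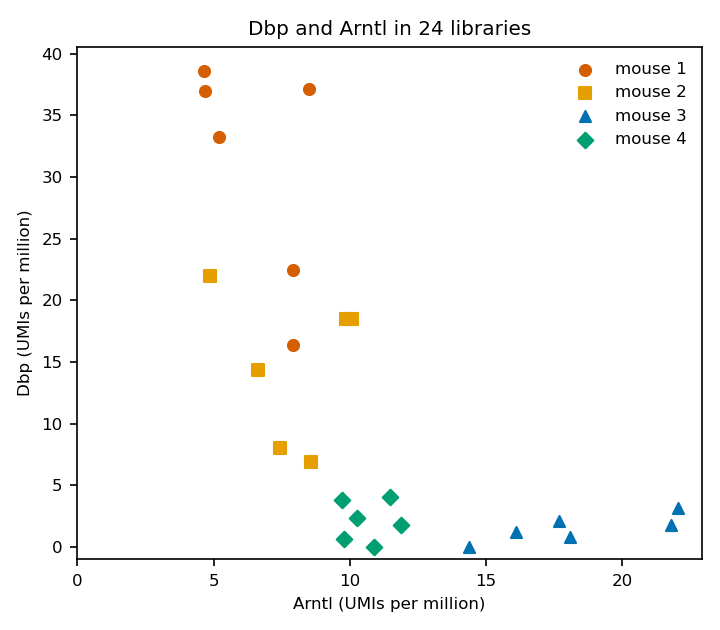
Dbp (y axis) against Arntl (x axis) in CPM, 1 point per library, with a colour and shape for each mouse. Libraries of mouse 1 lie at high Dbp and low Arntl, those of mouse 3 at low Dbp and high Arntl, and those of mouse 4 at low Dbp with Arntl between 9.72 and 11.9.

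The period genes had their highest levels in mouse 1. Per1 ranged from 3.64 to 7.64 CPM in mouse 1 and reached 2.86 in mouse 2, 2.47 in mouse 3 and 2.38 in mouse 4. Mouse 1 did not overlap any other mouse, and the adjusted p between mice without the filter was 5.53e-04 by edgeR's quasi-likelihood test. Per2 had means of 3.21 in mouse 1 and 0.59 in mouse 4, the lowest (adjusted p = 0.0184). Ciart had 14, 7, 1 and 3 UMIs in mice 1, 2, 3 and 4.

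Npas2 and Nfil3 showed the order of mice seen for Arntl, and the tests given here for other clock genes are from the fit with the filter. Npas2 had means of 27.0 ± 8.63 CPM in mouse 3, 15.7 ± 5.01 in mouse 4, 12.1 ± 5.70 in mouse 2 and 9.93 ± 4.41 in mouse 1 (SD, n = 6 zones), a range of 1.43 log2 units (adjusted p = 2.78e-06 by edgeR's quasi-likelihood test). Nfil3, which encodes the repressor that competes with DBP and TEF, had means of 16.7 ± 3.02 in mouse 3, 13.9 ± 3.32 in mouse 4, 8.23 ± 1.84 in mouse 2 and 6.01 ± 2.52 in mouse 1, a range of 1.42 (adjusted p = 9.77e-06). Cry1 ranged over 1.15 log2 units (adjusted p = 0.00288), highest in mouse 3 and lowest in mouse 2. In all, 4 of 5 tested genes of that list and 4 of 10 tested kinase and ubiquitin genes were called between mice, against the 48.1% over all genes.

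Other features of the libraries were also compared between mice. With the filter, edgeR's test called 8 of 9 goblet genes and 0 of 4 tested Paneth cell genes between mice. It called 2 of 5 stem cell genes and 1 of 4 tested leukocyte genes, against 48.1% of all genes. The goblet list summed to means of 16041 CPM in mouse 1, 31568 in mouse 2, 29805 in mouse 3 and 26080 in mouse 4, and the Paneth cell list (4 of 5 counted) to 15803, 12094, 9132 and 4386. The stem cell list (5 of 5 counted) summed to 70.4, 67.1, 43.8 and 44.4 CPM in mice 1, 2, 3 and 4, and the leukocyte list to 94.6, 89.3, 157 and 94.9. Mitochondrial transcripts took 8.55% of UMIs in mouse 1, 5.55% in mouse 2, 7.37% in mouse 3 and 6.74% in mouse 4. Of the immediate early genes, 13 of 13 tested were called between mice, against 48.1% of all genes. Of 4 tested glucocorticoid targets 3 were called, a list too short to set against that share. Among those called was Tsc22d3, with 90.7, 88.5, 62.7 and 65.8 CPM in mice 1, 2, 3 and 4 (adjusted p = 3.62e-05 by edgeR's quasi-likelihood test). In the same mice Sgk1 had 118, 38.6, 86.2 and 111 CPM (adjusted p = 1.59e-10 by the same test). Fkbp5 had 3.81, 7.32, 2.14 and 2.98 CPM (adjusted p = 0.00289), so the called genes did not share an order of mice. The part of these features in the clock differences was not tested, and the animal, the hour of death and the sequencing batch cannot be told apart. The V1 library of mouse 2, which carries the index code of mouse 1, had 6.86 CPM of Dbp, against 16.3 in V1 of mouse 1. Without all V1 libraries, 6 of 6 members were called between mice in the fit with the filter, and 4024 of all 8970 genes tested. That fit leaves out the 1 library that separates mouse from index code, so the 2 cannot be told apart in it.

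Reads of genes on opposite strands could be mixed where exons overlap, because the sources used here do not give the strand setting of the counting. Exons of Dbp share 539 bases (18.0% of its exon bases) with Sphk2, and those of Nr1d1 share 263 bases (8.55%) with Thra. Sphk2 had 61.5, 53.1, 58.1 and 59.9 CPM in mice 1, 2, 3 and 4 and was not called between mice (adjusted p = 0.404 by edgeR's quasi-likelihood test). Thra had 42.8, 36.2, 65.4 and 59.0 (adjusted p = 3.54e-06), highest in mouse 3, where Nr1d1 was lowest. The slope of Thra along the villus was 0.11 (adjusted p = 0.0717, and 0.00223 with the mouse block), and that of Sphk2 was 0.05 (adjusted p = 0.192).

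Whether the slope along the villus differed between mice was tested directly. edgeR's quasi-likelihood test with Benjamini-Hochberg adjustment called 0 of 9328 genes (0%) and 0 of 6 members, with 368 genes and 0 members at an unadjusted p under 0.05. DESeq2 called 5 genes and limma-voom 0, none of them members. The lowest unadjusted p of a member was 0.327 with edgeR, for Tef, 0.294 with DESeq2 and 0.171 with limma-voom. Within single mice, the slope of Nr1d1 was 0.33, 0.23, 0.11 and 0.22 log2 units per zone in mice 1, 2, 3 and 4, so it pointed upward in each. Per zone, that of Dbp was 0.23, 0.25, 0.14 and -0.13.

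Genes whose pattern was most like that of a member were sought among the 7098 genes that averaged 10 CPM or more. After the zone mean was taken off, the Pearson r over 24 libraries with Dbp was 0.95 for Mt2, 0.95 for Mt1 (both metallothioneins) and 0.93 for Rpl32-ps, a pseudogene by its name, whose reads may be shared with its parent gene. For Tef the genes were Mt1 (0.88), Acaa2 (0.88) and Gm15710 (0.87), for Nr1d1 Gm10263 (0.92), Gm15427 (0.90) and Gm9625 (0.90), for Arntl BC003331 (0.90), Cd2ap (0.87) and Duox2 (0.87), and for Clock Smchd1 (0.87), Dhx36 (0.82) and Wipf2 (0.81). Among the members, r was 0.85 between Dbp and Tef, -0.89 between Nr1d1 and Arntl and -0.80 between Dbp and Arntl. With the zone differences kept in, the most alike were Mt2 for Dbp (0.91), Adh1 for Tef (0.83), Glud1 for Nr1d1 (0.87), Chid1 for Arntl (0.82) and Tob1 for Clock (0.83). The 24 points come from 4 animals, and the 6 libraries of a mouse share that animal.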

How the data were processed

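Raw UMI counts by gene, as deposited by the authors, were used for 24 libraries, a library for each of 6 villus zones in each of 4 mice. The submitters' processing notes name bcl2fastq 2.15.0.4 and GRCm38. Not given in the sources used here were the aligner, the annotation release, the strand setting and the treatment of intron reads. Library totals were 806541 to 2266261 UMIs (median 1502948.5), so genes under about 10 UMIs per library are measured coarsely. The limits given for a count of 0 cover counting error only, while standard errors come from the fits and include the spread between libraries.

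Counts were filtered with filterByExpr (minimum count 10, minimum total 15), TMM-scaled and tested with the quasi-likelihood test of edgeR 4.0.16 in R 4.3.3, with Benjamini-Hochberg adjustment over all tested genes at 0.05. The model held zone alone (18 residual degrees of freedom). The alternative with the mouse as a replicate block used the shared animal as pairing: libraries of 1 mouse deviated from their zone means together in 60 of 60 pairs (mean r 0.485, lowest 0.233). Over 216 pairs of different mice the mean r was -0.189, and 36 of them had r above 0.1. Taking off the zone mean by itself pushes r between mice below 0, so that mean is no independent contrast. No library was a copy of another: counts of libraries of 1 zone differed by 3.77 to 32.7 times the counting noise (chi-square per degree of freedom, 36 pairs). Differences between mice were tested with zone in the model, and slope differences with a slope per mouse. Alternatives were DESeq2 1.42.0, its size factors, limma-voom (limma 3.58.1), total UMIs as library size, no filter, no mitochondrial genes, each mouse left out, fewer zones, and a goblet marker score beside the mouse block. Scripts were tested on simulated data.

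All members are named. Of each further list the text takes from up to 4 genes with the smallest adjusted p on the slope, up to 4 between mice and the most abundant. Some genes of these lists are not reported here by name. Hlf, Thra and Sphk2 were named besides, after their values were seen. Members and lists were chosen with earlier results of these data known. Gene positions are those of GENCODE M21 on GRCm38.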

Additional observations from a re-analysis of the deposited data

Results flagged for a closer look

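Over 54 groups of 4 libraries (9 members in 6 zones), 5 held a library whose gap to the nearest of the others was above the critical share of the group's range, and chance flags about 1 in 20 groups. Per1 in mouse 1 stood apart in V4, with 7.64 CPM against 0.813 to 1.64 in the other mice, and in V5, with 5.66 against 1.10 to 1.35. Arntl in mouse 3 stood apart in V6, with 17.7 against 8.52 to 10.1. Ciart in mouse 1 was the 1 library with a count in V4 (0.588 CPM) and in V6 (0.608), each from 1 molecule, so these values lie under the limit that a count of 0 allows.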

How the results depend on the processing

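Member counts depended on the mouse term and on the filter, scaling and animals. Members higher on the slope numbered 1 with zone alone, 4 with the replicate block and 0 with total UMIs, no filter, limma-voom, V2 to V6 or V3 to V6. In those fits with 0, calls higher over all genes were 1217 of 9328, 2114 of 17680, 2094 of 9328, 862 of 8970 and 222 of 8643. Combinations chosen after seeing the data gave 0 over V3 to V6 with the block, 2 with total UMIs and the block and 4 with no filter and the block. Over all genes these called 587 of 8643, 1551 of 9328 and 2790 of 17680 higher. For V6 minus V1 the count was 1, 3 with the block, 1 with total UMIs and the block, 4 with no filter and the block, and 0 with DESeq2 size factors, total UMIs, no filter, limma-voom or without mitochondrial genes. Over all genes the fits with 0 called 1853, 1152, 1893, 1889 and 1843 higher, against 1882 with zone alone. For V4 minus V1 it was 1, 5 with the block, 5 with no filter and the block, 3 with total UMIs and the block, and 0 with total UMIs or limma-voom. Over all genes, V4 minus V1 had 1769 calls higher with zone alone, 1051 with total UMIs and 1691 with limma-voom. For any zone difference the member count was 0, 3 with the block, 1 with total UMIs and the block and 4 with no filter and the block. Over all genes these fits called 2556, 4533, 5075 and 5103. With 1 mouse left out, the member counts ranged over 0 to 2 for the slope (1 to 4 with the block), 0 to 2 for V6 minus V1 (1 to 4), 0 to 2 for V4 minus V1 (2 to 5), 0 to 1 for any zone difference (1 to 3) and 3 to 6 between mice, where 3 was without mouse 3. Over all genes, calls without the block then ranged from 1510 to 1879 higher on the slope and from 1258 to 1634 for V6 minus V1. Calls between mice ranged from 3001 to 4029. Counts of members lower, for V6 minus V4 and for slope differences between mice were 0 under every alternative run.

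Signs turned only in alternatives where the value was not called, among them slopes of Clock and Dbp that were called with the block, and the cause was not tested. The Arntl slope was -0.046 with total UMIs, -0.059 with total UMIs and the block, -0.18 with the goblet score, and between -0.023 and 0.033 with 1 mouse left out (-0.025 without mouse 3 with the block). The goblet score also gave -0.10 for Clock and -0.12 for Tef. Over V3 to V6 without and with the block, slopes were -0.042 and -0.057 for Clock, -0.028 and -0.0067 for Dbp and -0.063 and -0.014 for Tef, and over V2 to V6 they were -0.015 for Nr1d2 and -0.017 for Tef. V6 minus V1 of Arntl was -0.27 with total UMIs, -0.28 with the block added and between -0.029 and 0.17 with 1 mouse left out (-0.035 without mouse 2 with the block). With 1 mouse left out, V6 minus V4 was between -0.31 and 0.022 for Clock (0.0080 without mouse 4 with the block) and between -0.72 and 0.11 for Tef (0.22 without mouse 1 with the block), and it was 0.0017 for Dbp without mouse 2 with the block.

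Scaling by total UMIs moved the median slope of all genes to -0.07 and their median V6 minus V1 to -0.34, and the calls on the slope to 1217 higher and 3720 lower, from 2063 and 2126. Over all genes, slope calls were 862 higher and 256 lower over V2 to V6, 222 and 2 over V3 to V6, 207 and 63 with the goblet score, and 1510 and 1293 without mouse 1. Calls of any zone difference were 2556 with zone alone, 4533 with the block, 1365 without mouse 1 and 1460 without mouse 4. V6 minus V4 had 42 calls with zone alone, 132 with the block and 65 without the filter. Depth limited Per1, Per2 and Ciart in all libraries, Dbp and Tef in mice 3 and 4, and Nr1d2 in mouse 3.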
